A study of Mus musculus with 12 samples.

Results

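Zinc finger protein (Zfp) transcripts are mRNAs of the genes named Zfp followed by a number in mouse nomenclature, here measured in primary hepatocytes and in RNA recovered with an antibody against CNOT6L. All genes on the array with a symbol of this form were taken, without Zfp36, which gave 278 genes of 15780 named genes, each with 1 probe set. The rule used names only and no measured value. Of the 278 transcripts, 186 passed the filter on low signal that 9496 of all genes passed, and the other 92 did not.

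CNOT6L is an enzyme of the CCR4-NOT complex that removes poly(A) tails from mRNAs. Male C57BL/6J mice aged 8 weeks, either wild type or knockout for Cnot6l, gave the cells. Each hepatocyte preparation was divided, and total RNA was taken from part of it (input) and RNA from an anti-CNOT6L immunoprecipitate from the rest (IP). The 4 groups, input and IP of each genotype, had 3 arrays each, and the knockout served as the negative control of the immunoprecipitation. No treatment is named. Which part of Cnot6l was deleted, in which cells, and whether every replicate number stands for a separate animal are not stated in the labels, so the p-values measure the spread between these samples.

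Most genes with such symbols encode proteins with tandem C2H2 zinc fingers, which read DNA. Many of them also carry a KRAB domain, which recruits TRIM28 and its partners to silence chromatin, and many lie in tandem clusters of related genes. Others bind RNA, act on ribosomes or sit in chromatin complexes. CCR4-NOT acts on mRNAs in the cytoplasm, and in an RNA immunoprecipitation the difference between IP and input asks how strongly a transcript was recovered relative to its level in the cells. Subtracting the knockout difference from the wild-type difference, called specific enrichment below, is meant to remove what is recovered without the target protein.

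Values are log2 signals as deposited, and a difference of 1 is a 2-fold change. The median of an array lay between 6.31 and 6.45 over the 12 arrays. The hepatocyte markers, 8 of 8 on the array, had a median level of 13.09 in wild-type input and 12.64 in wild-type IP, while the 6 Kupffer cell markers had medians of 4.33 and 5.12, with 1 of 6 passing the filter. The summed log2 level of the Kupffer markers was 7.17 to 7.55 in wild-type inputs and 7.70 to 8.06 in wild-type IPs. In the knockout it was 7.05 to 7.40 in inputs and 7.76 to 7.95 in IPs. Stellate cell markers (3 of 6 passing the filter) gave wild-type sums of 8.12 to 9.92 in input and 8.20 to 9.50 in IP. Cholangiocyte markers (2 of 4) gave 7.88 to 9.22 and 7.71 to 9.13. Sinusoidal endothelial markers (2 of 5) gave 7.36 to 8.69 and 7.87 to 8.63, and leukocyte markers (1 of 3) 6.5 to 6.7 and 6.0 to 6.8. In the stellate, cholangiocyte, endothelial and leukocyte sets, input and IP ranges overlapped in both genotypes. The bacterial poly-A controls exceeded their level in the paired input by 4.47 to 5.99, and the gap between 3′ and 5′ probe sets was 0.85 to 1.95 wider for Gapdh and 1.38 to 1.91 wider for beta-actin in the IPs. These differences between the fractions ran along with every IP minus input value that follows, and their part in those values was not tested. The Cnot6l signal was 8.44 to 9.51 in wild-type input and 9.12 to 9.34 in knockout input, so it was not lower in the knockout, and the labels do not say whether its probe set lies in the deleted part.

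Zfp transcripts gave middling to low signals in hepatocyte input RNA. The median over the 278 genes was 6.17 (range 2.72 to 10.23), against 6.39 over all named genes. Only 29 members, 10.4%, reached a signal of 8, which 32.3% of all genes reached. A signal of 10 was reached by 3 members, 1.08%, against 10.5% of all genes. The signal of a probe set also depends on its probes, so these values place members on the array and do not order transcripts by abundance.

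**Figure D1:**
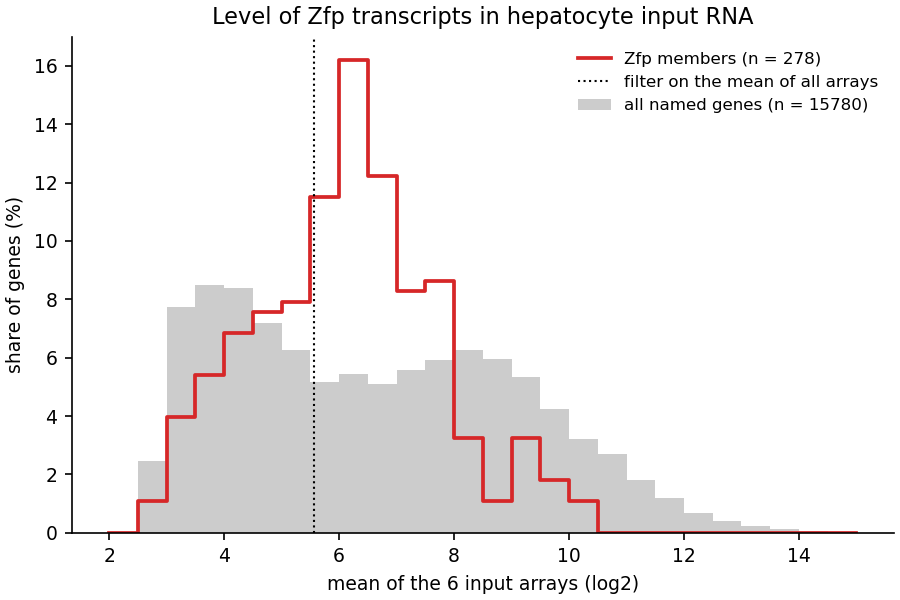
Share of genes in percent (vertical axis) by mean log2 signal of the 6 input arrays (horizontal axis), for the 278 Zfp genes (red line) and the 15780 named genes (grey bars). The Zfp genes pile up around a signal of 6, close to the filter at 5.57 (dotted line), and none reaches 11.

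The 6 members with the highest input signals were Zfp617, Zfp598, Zfp207, Zfp706, Zfp281 and Zfp622, with means of 9.88 to 10.23 over the 6 inputs. Zfp598, the ubiquitin ligase that marks collided ribosomes, read 10.08, 9.95 and 10.34 in wild-type input, 9.85, 9.70 and 10.05 in wild-type IP, 10.19, 9.89 and 10.04 in knockout input and 10.21, 9.55 and 10.11 in knockout IP. Its 4 groups overlapped. Zfp622, a factor in maturation of the large ribosomal subunit, likewise stayed between 9.43 and 10.34 on all 12 arrays. Zfp207, a microtubule-binding protein of the spindle, read 10.50, 10.02 and 9.25 in wild-type input and 9.43, 9.44 and 8.28 in wild-type IP. It was lower in the IP of all 3 preparations of each genotype, by a mean of 0.88 in wild type and 0.82 in the knockout, although the groups overlapped because the replicate numbers differed so much among themselves.

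No difference in the input levels of Zfp transcripts between the genotypes was detected. The knockout minus wild-type input difference had a median of 0.03 over the 186 tested members and 0.02 over all tested genes. With limma, 0 members passed at an adjusted p under 0.05, where 0% of all tested genes were called in either direction, and 0 passed with the replicate number as a block. At an unadjusted p under 0.05 the count was also 0, against 0.0316% of all genes higher and 0.0211% lower. With the block, 2 members were higher at an unadjusted p under 0.05, Zfp229 and Zfp74 (1.08%, against 0.242% of all genes), and 0 were lower (0% of members, against 0.316%). In the fit without the block, the unadjusted 95% interval of a single member's difference reached a median of 0.86 to either side. That fit pools the spread of inputs and IPs and keeps the differences between replicate numbers in it. The median standard deviation of tested members was 0.35 and 0.30 in wild-type and knockout inputs, and 0.46 and 0.50 in the IPs. The interval is therefore wide for inputs, and none from the fit with the block is given. Changes smaller than about that size could not be told from 0 in that fit for a typical member. Larger changes could also fail the adjusted threshold. In bulk RNA, fewer cells of a type and less RNA per cell cannot be told apart.

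The 3 members nearest to a call on the higher side of that input comparison were Zfp229, Zfp74 and Zfp141, and none passed. Zfp229 read 5.31, 6.06 and 6.68 in wild-type input and 6.30, 7.05 and 7.0 in knockout input, so the groups overlapped although the knockout was higher in all 3 numbers. Its difference was 0.77 (95% interval -0.23 to 1.76). Zfp74 differed by 0.47 (-0.20 to 1.15) and Zfp141 by 0.44 (-0.24 to 1.12). On the lower side, Zfp687, a partner of the chromatin reader ZMYND8, differed by -0.33 (-0.99 to 0.33), Zfp579 by -0.32 and Zfp346, a double-stranded RNA binding protein, by -0.21. The adjusted p of each was 1.0.

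In 5 members the 3 knockout inputs all lay above the 3 wild-type inputs, 2.69% of those tested, against 0.663% of all genes. These were Zfp105, Zfp386, Zfp644, Zfp763 and Zfp961, named after their values were seen, with differences of 0.29 to 0.47. Zfp386, the largest, read 7.02, 7.64 and 7.70 in wild type and 7.88, 7.98 and 7.90 in the knockout. In 3 members, Zfp13, Zfp629 and Zfp821, all knockout inputs lay below (1.61%, against 0.958% of all genes), with differences of -0.16 to -0.28. None of the 8 had an adjusted p under 0.05 in this comparison, with or without the block.

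In wild-type cells, Zfp transcripts were on the whole better recovered in the CNOT6L IP than other transcripts. The median IP minus input difference was 0.26 over the 186 members and -0.11 over all tested genes. The difference was positive in 130 members, 69.9%, against 41.6% of all genes. In 61 members, 32.8%, all 3 preparations were higher in the IP (19% of all genes), and in 21 members all 3 were lower (11.3%, against 33% of all genes). In 29 members, 15.6%, the 3 IP arrays all lay above the 3 inputs, against 7.72% of all genes, and in 4 members they all lay below (2.15%, against 7.59%).

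Individually, no member passed in wild type in limma's fit of the 4 group means. The count called was 0 in both directions, against 0.105% of all tested genes higher and 0% lower, and at an unadjusted p under 0.05 it was 18 higher (9.68%, against 4.58%) and 4 lower (2.15%, against 6.03%). With the preparation as a block, which takes each IP against its own input, 10 members passed as higher (5.38%, against 2.41% of all genes) and 3 as lower (1.61%, against 4.61%). The 10 were Zfp11, Zfp87, Zfp160, Zfp229, Zfp418, Zfp764, Zfp770, Zfp809, Zfp958 and Zfp959, and the 3 were Zfp64, Zfp93 and Zfp771. With this block after quantile normalization, 6 of these 13 still passed, all as higher: Zfp11, Zfp87, Zfp160, Zfp764, Zfp809 and Zfp958.

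Within each replicate number, the members' wild-type median was 0.33, 0.42 and -0.01, and that of all tested genes -0.08, -0.08 and -0.18. The members' median lay above that of all genes in each number, but in number 3 it was not above 0. Number 3 also had the widest 3′ to 5′ gap of Gapdh, 1.95 wider in the IP, against 0.85 and 0.88 in the other wild-type preparations. The part of this gap in the members' values was not tested.

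**Figure D2:**
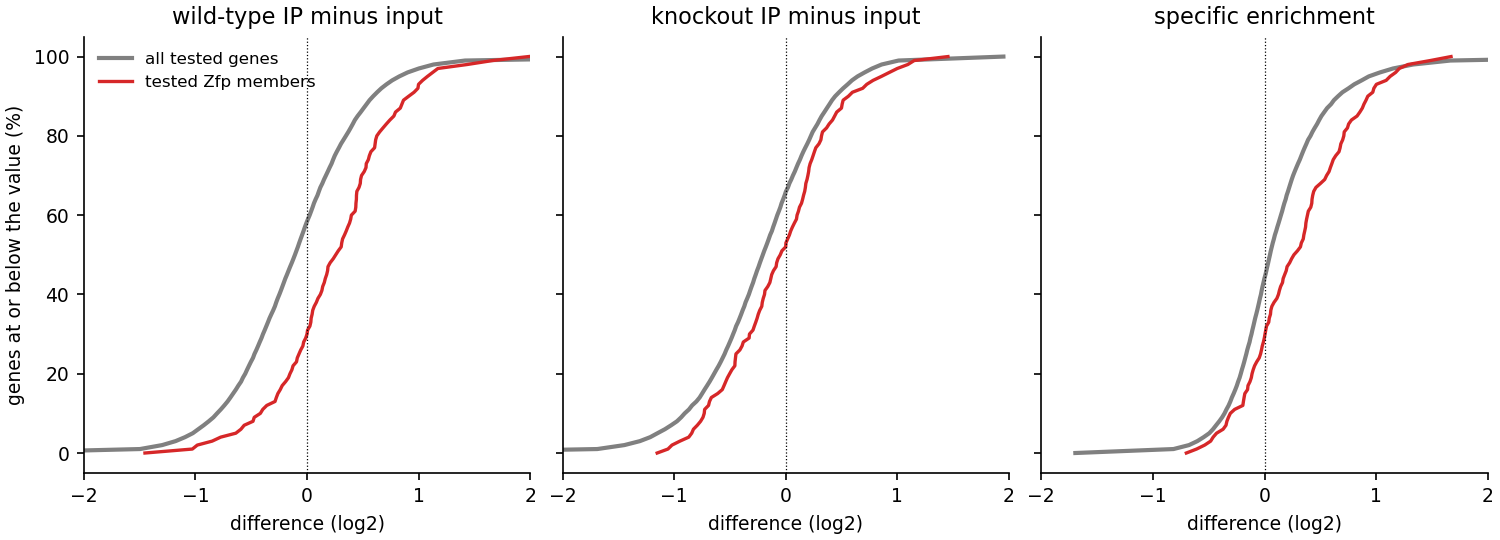
Percentage of genes at or below a log2 difference (vertical axis) against that difference (horizontal axis, drawn from -2 to 2), for 186 tested Zfp genes (red) and 9496 tested genes (grey), in the wild type, the knockout, and as specific enrichment. The red curve lies to the right of the grey one by the most in the wild type (medians 0.26 and -0.11) and by less in the knockout (-0.05 and -0.21).

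In the knockout, the negative control, the members stood nearer to 0. The median IP minus input difference was -0.05 over members and -0.21 over all tested genes, and the sign of the members' median turned to 0.01 after quantile normalization and to 0.02 without knockout IP replicate 3. Quantile normalization also moved the median of all genes from -0.21 to -0.04 in the knockout. The difference was positive in 89 members, 47.8%, against 34.1% of all genes. The members' median was 0.03, 0.00 and -0.09 in the 3 numbers.

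In limma's fit, 0 members passed in the knockout, where 0% of all genes were called in either direction, and at an unadjusted p under 0.05 there were 10 higher (5.38%, against 2.97%) and 6 lower (3.23%, against 8%). With the block, 3 passed as higher (1.61%, against 0.727% of all genes), namely Zfp618, Zfp703 and Zfp959, and 4 as lower (2.15%, against 5.28%), namely Zfp266, Zfp647, Zfp688 and Zfp740. Zfp959 was the member that passed as higher with the block in both genotypes. After quantile normalization, 0 of these 7 passed with the block, where 0.316% of all genes did.

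Setting both genotypes side by side, 80 members (43%) were higher in both IPs than in the inputs, 47 (25.3%) were lower in both, 50 (26.9%) were higher in the wild type and lower in the knockout, and 9 (4.84%) the opposite. Over all tested genes these shares were 26.6%, 50.9%, 15% and 7.5%. The wild-type and knockout differences correlated across members (Spearman 0.58, n = 186 genes; 0.69 over all 9496), a description across genes that share arrays and are not independent replicates. In 4 members, 2.15%, all 3 preparations were higher in the IP in wild type and all 3 lower in the knockout, against 1.66% of all genes. These were Zfp451, Zfp652, Zfp790 and Zfp830.

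**Figure D3:**
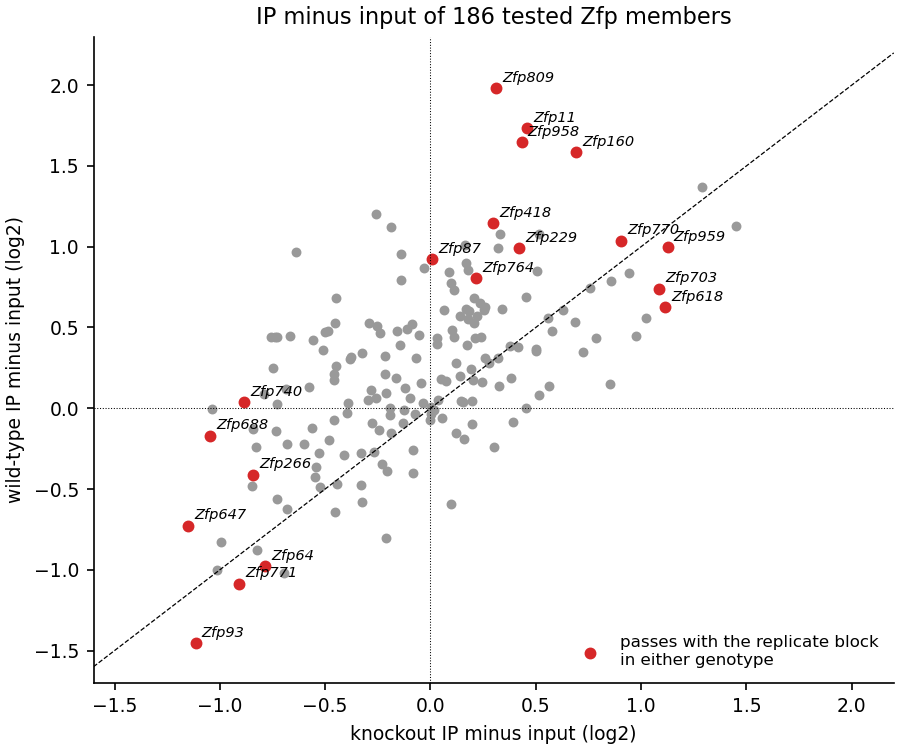
Wild-type IP minus input (vertical axis, log2) against knockout IP minus input (horizontal axis, log2) for each of 186 tested Zfp genes, with a dashed line of equal values. Red, named points passed with the replicate block in either genotype; Zfp809, Zfp11 and Zfp958 lie far above the line, and Zfp959 close to it.

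Specific enrichment, the wild-type difference less the knockout difference, had a median of 0.26 over members and 0.05 over all tested genes, and was positive in 131 members, 70.4%, against 55.8% of all genes. The members' median was 0.27, 0.34 and 0.13 in the 3 numbers. Values above 0.5 were found in 60 members (32.3%, against 15.5% of all genes) and values below -0.5 in 5 members (2.69%, against 4.93%). After quantile normalization the members' median was 0.20 and that of all genes -0.03.

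Specific enrichment passed for 0 members in limma's fit, with or without the block, where 0.0105% of all genes were called higher without it and 0.0211% with it. At an unadjusted p under 0.05, 5 members were higher (2.69%, against 1.83%) and 0 lower (0% of members, against 0.147%). With the block these counts were 17 higher (9.14%, against 5.54%) and 0 lower (against 0.621%). In the fit without the block, the median standard error of a member's specific enrichment was 0.56, so that its 95% interval reached 1.22 to either side. The direct comparison of the IPs, wild type minus knockout, had a median of 0.18 over members and 0.04 over all genes, with 119 members (64%) higher in the wild type, against 54.1% of all genes. In that comparison 0 members passed without the block, where 0.253% of all genes were called higher and 0% lower, while 21 members were higher at an unadjusted p under 0.05 (11.3%, against 4.78%) and 1 lower (0.538%, against 0.611%). With the block, 8 were higher (4.3%, against 2.33%) and 1 lower (0.538%, against 0.126%). After quantile normalization with the block, 4 of these 9 passed (2.14% of members, against 1.81% of all genes), namely Zfp105, Zfp346, Zfp740 and Zfp809.

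Zfp809, a KRAB protein that silences retroviruses by binding their primer binding site in embryonic cells, had the largest wild-type difference among the 186 tested members. It read 8.43, 9.52 and 10.25 in wild-type input and 10.81, 11.80 and 11.54 in wild-type IP. In the knockout it read 9.07, 9.27 and 9.77 in input and 9.72, 9.67 and 9.66 in IP. All wild-type IP arrays lay above all 9 others, while the knockout fractions overlapped. The wild-type difference was 1.98 ± 0.43 (SE, n = 3 against 3), a 3.96-fold change, and did not pass in limma without the block (adjusted p = 0.137). With the block it passed (adjusted p = 0.0125, range over the alternatives 0.00655 to 0.460). The knockout difference was 0.31 ± 0.43. The IPs differed by 1.70 ± 0.43 (adjusted p = 0.219, with the block 0.0193, range over the alternatives to 0.680). Specific enrichment was 1.67 (95% interval 0.34 to 3.0, adjusted p = 1.0, with the block 0.222).

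Zfp11 was also highest in the wild-type IP. It read 6.18, 5.83 and 6.12 in wild-type input, 7.47, 8.06 and 7.80 in wild-type IP, 6.29, 6.29 and 5.94 in knockout input and 6.19, 6.72 and 6.98 in knockout IP. The wild-type IPs lay above the other 9 arrays. Its wild-type difference of 1.73 ± 0.29, a 3.33-fold change, came closest to a call (adjusted p = 0.0527 in limma, with the block 0.0166, range over the alternatives 0.00489 to 0.332). It passed at 0.0388 when knockout IP replicate 1 was left out. Its knockout difference was 0.46 ± 0.29, and its specific enrichment 1.27 (95% interval 0.37 to 2.18, adjusted p = 1.0, with the block 0.465).

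Zfp958 and Zfp160 were also wide in range. Zfp958 read 6.16, 7.22 and 7.88 in wild-type input and 8.81, 8.75 and 8.65 in wild-type IP, against 7.56, 7.57 and 7.81 in knockout input and 7.49, 8.54 and 8.21 in knockout IP. Its wild-type fractions did not overlap and its knockout fractions did. The difference was 1.65 ± 0.41 in wild type (adjusted p = 0.171, with the block 0.0335) and 0.43 ± 0.41 in the knockout. Zfp160 read 5.4, 6.92 and 7.88 in wild-type input and 7.64, 9.18 and 8.14 in wild-type IP, and passed with the preparation as a block but not without it (1.59 ± 0.68, adjusted p = 0.431, with the block 0.0439).

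Zfp959 was higher in the IPs of both genotypes by like amounts. It read 5.38, 5.73 and 5.74 in wild-type input and 6.59, 6.61 and 6.65 in wild-type IP, and 5.55, 5.57 and 5.69 in knockout input and 6.49, 6.93 and 6.77 in knockout IP. In each genotype every IP lay above every input. The differences were 1.0 ± 0.24 in wild type (adjusted p = 0.165, with the block 0.0277) and 1.13 ± 0.24 in the knockout (0.158 and 0.0256), and the specific enrichment was -0.13 ± 0.35. After quantile normalization with the block, neither difference passed (adjusted p = 0.0541 and 0.0688). Over the alternatives the adjusted p was 0.00852 to 0.566 in wild type and 0.00826 to 0.668 in the knockout. Zfp59 (1.13 and 1.45), Zfp112 (0.84 and 0.94) and Zfp575 (0.44 and 0.98) were likewise higher in the IP of both genotypes, and none of these 3 passed with the preparation as a block. With the number as the block, Zfp575 (adjusted p = 0.0305) and Zfp112 (0.0478) passed in the knockout.

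**Figure D4:**
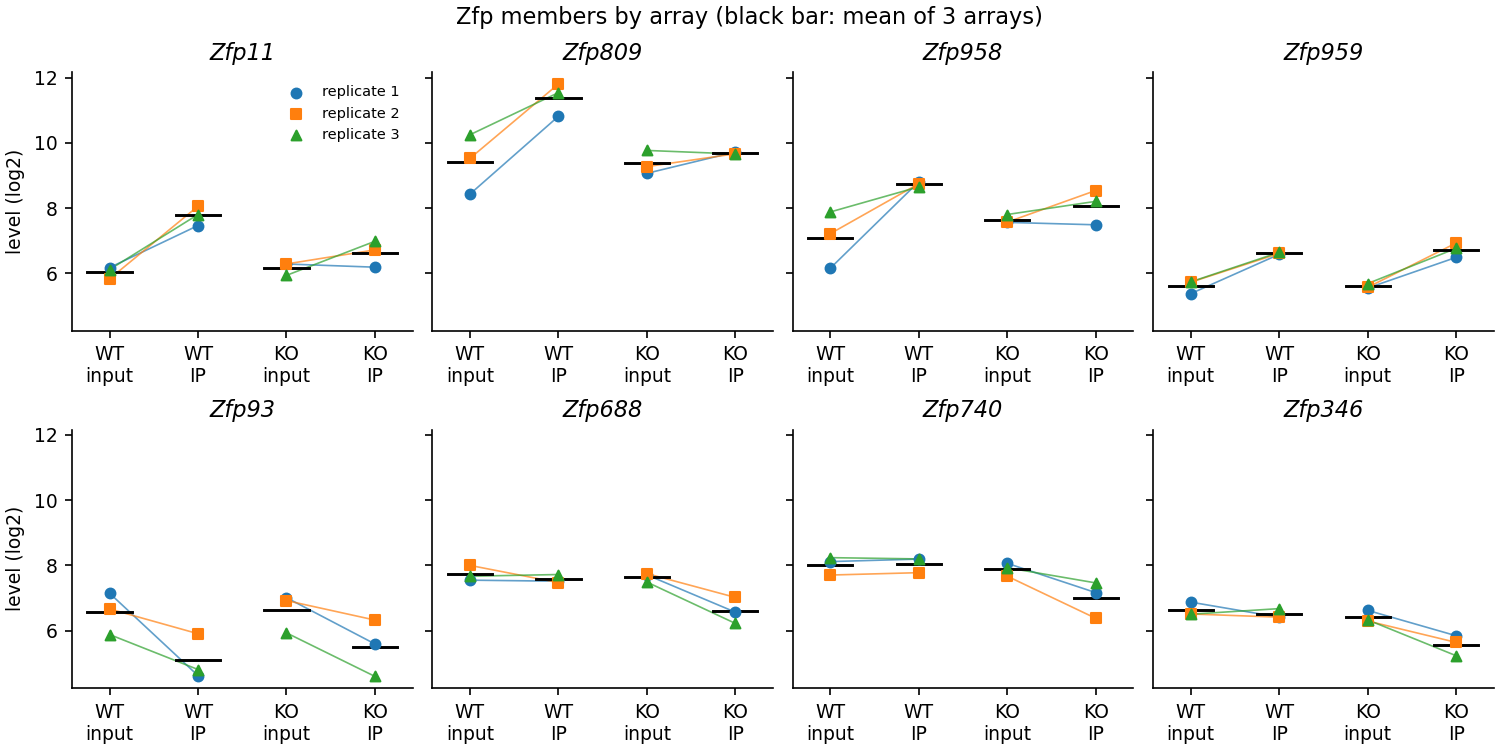
Log2 level (vertical axis) of 8 Zfp genes on each of the 12 arrays, by group (horizontal axis), with lines joining IP and input of the same replicate number and black bars for the mean of 3 arrays. In Zfp11 and Zfp809 the wild-type IPs stand above all other arrays, in Zfp959 both IPs stand above both inputs, and in Zfp688, Zfp740 and Zfp346 the knockout IPs stand below.

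Another pattern was a transcript kept at its input level in the wild-type IP and lower in the knockout IP. Zfp688 read 7.55, 8.00 and 7.67 in wild-type input, 7.52, 7.47 and 7.72 in wild-type IP, 7.71, 7.75 and 7.49 in knockout input and 6.57, 7.02 and 6.22 in knockout IP. The knockout IPs lay below the other 9 arrays. The knockout difference was -1.05 ± 0.28 (adjusted p = 0.222, with the block 0.0357), the wild-type difference -0.17 ± 0.28, and the IPs differed by 0.97 (adjusted p = 0.332, with the block 0.0428). After quantile normalization with the block neither passed: the knockout difference was -0.89 (adjusted p = 0.105, range over the alternatives 0.0173 to 0.761) and the difference between the IPs had an adjusted p of 0.0942. Zfp740 read 8.12, 7.70 and 8.24, then 8.19, 7.78 and 8.20 in the wild-type input and IP, and 8.06, 7.67 and 7.93, then 7.17, 6.38 and 7.46 in those of the knockout. Its knockout IPs were again the lowest arrays, with a difference of -0.88 ± 0.32 from input (adjusted p = 0.355, with the block 0.0498) and 1.05 between the IPs (0.412 and 0.0193). After quantile normalization with the block its knockout difference was -0.63 and did not pass (adjusted p = 0.159, range over the alternatives 0.0215 to 0.779). Without knockout IP replicate 2 it was -0.57. Zfp346 differed by -0.84 ± 0.27 in the knockout (0.299, with the block 0.0521) and by 0.93 between the IPs (0.332, with the block 0.0390).

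The remaining members that passed with the block between the IPs were Zfp87, Zfp652 and Zfp830 as higher in the wild type, by 0.95, 1.0 and 0.90, which did not pass with the block after quantile normalization (0.112, 0.113 and 0.0592), and Zfp105 as lower, by 0.98. Zfp105 read 5.42, 6.15 and 5.54 in wild-type IP and 6.47, 7.04 and 6.55 in knockout IP, with no overlap. The adjusted p for Zfp105 was 0.340 without the block and 0.0414 with it (range over the alternatives 0.0321 to 1.0). Zfp454 and Zfp111, next on that side, differed by -0.64 and -0.56 and did not pass.

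Members depleted from the wild-type IP were fewer. Zfp93 read 7.15, 6.67 and 5.88 in wild-type input and 4.62, 5.91 and 4.81 in wild-type IP, and 7.01, 6.92 and 5.93 against 5.59, 6.33 and 4.60 in the knockout. It was lower in the IP of all 6 preparations, although groups overlapped. Its difference was -1.45 ± 0.52 in wild type (adjusted p = 0.350, with the block 0.0425) and -1.12 ± 0.52 in the knockout (0.466 and 0.0828). After quantile normalization with the block the wild-type call was lost (adjusted p = 0.0633, range over the alternatives 0.0206 to 0.782). Zfp771 (-1.09 and -0.91) and Zfp64 (-0.98 and -0.79), which activates the MLL promoter in leukaemia, passed with the preparation block in wild type (0.0398 and 0.0385) and not in the knockout (0.0642 and 0.0662). With the number as the block, Zfp93 and Zfp771 passed in the knockout too. After quantile normalization with the block they did not pass in wild type either. Their specific enrichments of -0.18 and -0.19 did not pass. Zfp326, which couples splicing to transcript elongation, was lower by 1.02 and Zfp687 lower by 0.81 in wild type, and neither passed with the preparation as a block.

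Grouped by role, 4 imprinting and retroelement silencers passed the filter. All 4 tested members, Zfp57, Zfp445, Zfp568 and Zfp809, had positive differences in both genotypes (median 0.89 in wild type, 0.44 in the knockout), and only Zfp809 passed, with the block and in wild type. Of all 186 tested members, 69.9% were positive in wild type and 47.8% in the knockout. Specific enrichment was positive in 2 of these 4 silencers, as was the difference between the IPs. Zfp819 and Zfp708, also on this list, were below the filter. Zfp57, which keeps imprinted methylation in the early embryo, read 5.11, 5.19 and 5.16 in wild-type input and 5.85, 5.69 and 6.27 in wild-type IP, without overlap. It differed by 0.79 in wild type and 0.86 in the knockout, so its specific enrichment was -0.07. The wild-type inputs of Zfp57 lay below the filter of 5.57, which it passed through its higher IPs. Its positive signs thus follow in part from the filter. Zfp445, another imprint keeper, spread from 6.29 to 10.00 over the arrays, with number 1 low in all 4 groups, and differed by 0.14 ± 1.05.

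The members that act on RNA, ribosomes or protein quality control were mostly lower in the IPs. Of 8 tested, 1 was positive in wild type and 1 in the knockout, where 41.6% and 34.1% of all genes were, with medians of -0.37 and -0.33 (all genes -0.11 and -0.21), and 0 passed in either genotype with or without the preparation block. With the number as a block, 2 passed as lower in each genotype, Zfp207 and Zfp326 in wild type and Zfp207 and Zfp346 in the knockout, where 7.86% and 9.45% of all genes passed as lower. Zfp638, a DNA- and RNA-binding nuclear protein, was the positive member (0.53 and 0.21), while Zfp106, an RNA-binding protein, had -0.58 and -0.33, Zfp593, a ribosome assembly factor, -0.48 and -0.33, and Zfp326 -1.02 and -0.69. The specific enrichment of this group had a median of -0.10, with 3 of 8 positive. Zfp106, Zfp207, Zfp598 and Zfp622 of this list had high input signals, 9.81 to 10.08. All tested genes with mean levels from 9.33 upward had medians of -0.27 in wild type and -0.28 in the knockout. Of those genes, 28.1% and 24.4% were positive. The part of signal level in this group's values was not tested.

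Promoter-binding activators and stem cell regulators (7 tested) had medians of 0.03 in wild type and -0.46 in the knockout, and 6 of 7 had positive specific enrichment (median 0.38). With the block, Zfp64 passed as lower in wild type and Zfp740 as lower in the knockout and as higher in wild-type IP than in knockout IP. Chromatin-associated members (9 tested) had medians of 0.31 and 0.07 and a specific enrichment of 0.38, and 0 passed with the preparation block. Among them, Zfp292, a transcription regulator, averaged 7.11 in wild-type input and 8.12 in wild-type IP, against 7.10 and 7.26 in the knockout, and passed in wild type with the number as the block. Zfp592 and Zfp532, partners of Zfp687 in a ZMYND8 complex, had specific enrichments of 0.38 and 0.67.

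Adipocyte and metabolic regulators (5 tested) had medians of 0.52 in wild type and 0.21 in the knockout, and 0 passed. The preadipocyte factors Zfp423 and Zfp521 were below the filter, at 3.40 and 3.31 in wild-type input. Of the list for NF-kappaB and ubiquitin (4 tested), with medians of 0.08 and -0.47, Zfp703 passed with the block as higher in knockout IP against its input (1.08) and Zfp830 as higher in wild-type IP than in knockout IP (0.90). Neither is known mainly for the list's name: Zfp703 is a transcriptional corepressor and Zfp830 takes part in DNA break repair. The ubiquitin ligase Zfp91 had -0.49 and -0.52.

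The corepressors that KRAB zinc finger proteins work through had a wild-type median near that of all tested genes, and a knockout median above that of all tested genes. Of 24 genes listed, 19 were on the array and 18 were tested. Their median was -0.07 in wild type (all genes -0.11), 0.12 in the knockout (-0.21) and -0.10 as specific enrichment (0.05). Trim28, the shared KRAB corepressor, read 11.05 in wild-type input and 10.98 in wild-type IP, and 10.93 and 11.08 in the knockout. With the block 2 of 18 passed, both as lower in both genotypes, and 0 as higher. Of all tested genes, 4.61% passed as lower in wild type and 5.28% in the knockout, and 2.41% and 0.727% as higher. The 2 that passed were Mta2, a subunit of the NuRD remodelling complex (-2.69 in each genotype, adjusted p = 0.140 and 0.159, with the block 0.0101 and 0.0155), and the histone methyltransferase Ehmt2 (-1.11 and -0.99).

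Other zinc finger families also had positive medians in wild type. The wild-type median was 0.26 over 30 Zbtb genes, 0.21 over 11 Zscan and Zkscan genes, 0.44 over 14 Klf genes, 0.06 over 12 Zc3h genes and 0.49 over 14 genes named Zfp with letters after the number. In the knockout these medians were 0.06, -0.09, -0.42, -0.33 and -0.06, and as specific enrichment 0.20, 0.35, 0.79, 0.37 and 0.47. The median specific enrichment was thus positive in each of these families too, and no difference between families was tested.

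Because low signals were relatively higher in the IPs for all genes, members were also set beside genes of like level. The tested genes were split by mean level into 4 bins of equal size. In the lowest bin (5.57 to 6.81), which held 92 members, the wild-type median was 0.25 for members and 0.11 for all genes. In the next bin (6.81 to 8.04, 65 members) it was 0.40 and -0.11, in the next (8.04 to 9.33, 20 members) 0.10 and -0.19, and in the highest, with only 9 members, -0.03 and -0.27. Members thus lay above genes of like level in every bin in wild type, by the most in the bin from 6.81 to 8.04.

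In the knockout the same bins gave 0.04 and 0.09, -0.19 and -0.26, -0.16 and -0.30, and -0.08 and -0.28, so the members lay below all genes in the lowest bin and above them in the others. For wild-type IP minus knockout IP, the members' medians were 0.08, 0.42, 0.25 and -0.08, against 0.05, 0.11, 0.08 and -0.05. The difference between members and other genes was thus small in the lowest and highest bins of this comparison.

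**Figure D5:**
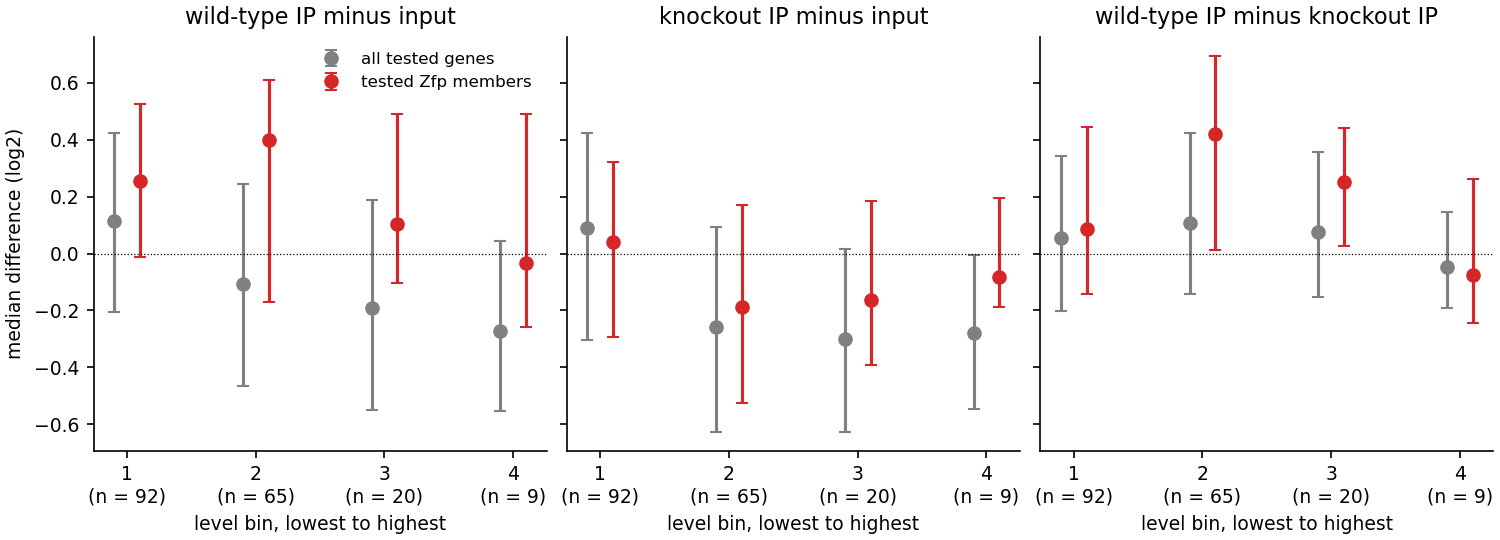
Median log2 difference (vertical axis, bars from the 25th to the 75th percentile) of tested Zfp genes (red) and all tested genes (grey) by bin of mean level (horizontal axis, with the number of Zfp genes). The red medians lie above the grey ones in all 4 bins in the wild type, and the widest gap is in the second bin, 0.40 against -0.11.

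The 92 members below the filter had mean levels of 3.16 to 5.57 (median 4.72), and in 23 of them a group mean exceeded the filter. Their median difference was 0.40 in wild type and 0.35 in the knockout, and -0.01 between the IPs. Zfp941, named after its values were seen, read 4.53, 4.49 and 4.53 in wild-type input, 6.83, 6.02 and 5.99 in wild-type IP, 4.50, 4.30 and 4.51 in knockout input and 4.25, 4.72 and 3.90 in knockout IP. The 3 wild-type IPs stood alone. In a limma fit of all 15780 genes without the filter, Zfp941 was the 1 member called in any comparison, with 1.99 ± 0.29 between the IPs (adjusted p = 0.0272), 1.76 ± 0.29 in wild type (0.0588) and 1.91 ± 0.41 as specific enrichment (0.634). Between the IPs that fit called 1 of 278 members (0.36%) and 30 of 15780 genes (0.19%). In that fit Zfp599 and Zfp712 differed by 1.61 and 2.17 in wild type and did not pass (0.0669 and 0.135). In the knockout, Zfp352, Zfp626, Zfp616 and Zfp974 were higher in the IP by 1.20, 1.35, 1.55 and 1.05. None of them passed in that fit either (adjusted p = 0.0511, 0.0566, 0.058 and 0.0651).

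Many members are neighbours on the chromosome. In the RefSeq gene order of GRCm38.p6, 277 members were placed and 77 pairs of members lay next to each other with no other protein-coding gene between, involving 119 members. In 36 pairs both were tested, and the sign was shared in 25 pairs in wild type, 22 in the knockout and 24 as specific enrichment. Of the 80 tested members in pairs, 58 were positive in wild type, 40 in the knockout and 58 as specific enrichment. Unrelated genes with such shares would also often share a sign, and an excess over that was not tested. The 80 tested members in such pairs had a wild-type median of 0.33, against 0.18 for the 106 others. Neighbours can be close paralogs, and whether probes of a neighbour cross-hybridise was not tested.

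A run of neighbours, chosen after its values were seen, is Zfp677, Zfp54, Zfp51, Zfp53, Zfp52 and Zfp948. Their wild-type differences were 0.06, 0.87, 1.20, 0.25, 1.08 and 1.12 in that order, and their knockout differences -0.10, -0.03, -0.26, -0.75, 0.51 and -0.19. Zfp51 read 5.80, 6.80 and 6.47 in wild-type input and 7.76, 7.97 and 6.96 in wild-type IP, without overlap, and 6.94, 6.82 and 6.66 in knockout input and 6.75, 7.89 and 5.01 in knockout IP, where the arrays spread widely. Its specific enrichment was 1.46 ± 0.83, and none of these genes passed in any comparison. The neighbours Zfp87 and Zfp748 had specific enrichments of 0.91 and 1.61 without passing.

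The promoters of some Zfp genes hold a sequence element that other promoters seldom hold. In the 250 bases before the start, taken from RefSeq promoters of GRCm38.p6 for 229 members (154 of them tested), the ZNF143 core ACTACAATT, searched on both strands without mismatch, was found in 9 members, 3.93%, against 83 of 12585 array genes, 0.66%. Of the 9, Zfp93, Zfp108, Zfp111 and Zfp180 lie close together on chromosome 7, between positions 24081852 and 24270382, so their matches may not be independent. The core was 1 of 13 motifs searched, of which some are longer forms of others. TTCCCAGA, a stretch at the end of the longer ZNF143 site, was found in 11.8% of members and 3.19% of array genes. The NRF1 core GCGCATGCG was found in 4.8% and 2.69%, the ETS core CCGGAAGT in 10.9% and 5.11%, the SP core GGGCGG in 46.7% and 55.4%, and TATAAA in 8.3% and 10.3%. The median GC content of the windows was 55.4% in members and 58% in array genes. The 6 tested members with the core are shown because the element is what these promoters have in common, each on the strand of the gene, with the core (or its complement, AATTGTAGT) in capitals.
Zfp1, chr8:111643395-111643442, plus strand: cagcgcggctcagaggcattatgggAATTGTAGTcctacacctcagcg
Zfp93, chr7:24270324-24270382, plus strand: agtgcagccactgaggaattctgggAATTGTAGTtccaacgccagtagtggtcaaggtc
Zfp111, chr7:24208362-24208399, minus strand: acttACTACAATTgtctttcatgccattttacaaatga
Zfp180, chr7:24081852-24081896, plus strand: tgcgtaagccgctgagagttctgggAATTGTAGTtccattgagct
Zfp454, chr11:50887641-50887699, minus strand: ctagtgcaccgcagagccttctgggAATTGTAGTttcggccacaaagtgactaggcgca
Zfp692, chr11:58306996-58307054, plus strand: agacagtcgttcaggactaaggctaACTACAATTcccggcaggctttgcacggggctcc

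Members with the element did not share a direction in the IPs. The wild-type IP minus input difference was 0.55 for Zfp1, 0.02 for Zfp180, 0.03 for Zfp692, 0.15 for Zfp454, -0.24 for Zfp111 and -1.45 for Zfp93, and the knockout difference was 0.18, -0.73, -0.04, 0.85, 0.30 and -1.12 in the same order. Zfp108, Zfp128 and Zfp58, the other members with the core, were below the filter. A match to these letters is a description of the window and does not show a bound site.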

How the data were processed

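Biotin-labelled RNA from 12 samples was hybridised to Affymetrix mouse arrays, with 10 micrograms of total RNA as the starting amount per the labels. The authors deposited log2 values, 1 per probe set and array, as their range shows; their background correction, normalization and summarisation are not stated in the labels or headers. The table held 16539 probe sets, 64 of them controls. Gene symbols came from the platform annotation, and 15752 of 15780 named genes matched RefSeq by Entrez identifier.

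Genes were tested if their mean reached the 40th percentile (5.57). Differences were fitted with limma 3.58.1 in R 4.3.3 on the 4 group means (8 residual degrees of freedom), with two-sided p-values adjusted over 9496 genes (Benjamini-Hochberg) and called under 0.05. Errors are standard errors of the fit. Arrays have no depth, and their number limits precision. The limma fit without a block was tested on simulated data with independent noise. The fits with a block were not tested in this way.

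After group means were removed, 18 pairs of arrays with the same replicate number correlated at 0.453 to 0.936 and others at -0.711 to 0.0685. Arrays of the same number thus deviated together, also across genotypes. Removing group means itself pushes the other correlations below 0. These values do not show that an IP and an input came from the same preparation. The poly-A controls read 5.05 and 5.04 in the wild-type and knockout inputs of number 1, against 8.51 to 8.81 in the other inputs. The block was the preparation for IP against input and specific enrichment (4 residual degrees of freedom), and the number between genotypes (6). Alternatives were quantile normalization, no or a stricter filter, the blocks, fits of the compared groups alone, and leaving out each array.

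Per comparison and direction, called members with the largest change were named, filled to 3 by the smallest p, plus the highest and widest-ranging members and the role lists. The members and lists were chosen with earlier results of these data known. Protein sequences were not used here. Figures were drawn with matplotlib 3.10.9.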

Additional observations from a re-analysis of the deposited data

Results flagged for a closer look

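In 2 members named here, Zfp451 and Zfp830, the IP was above the input in all 3 wild-type preparations and below it in all 3 knockout preparations. Zfp451, a SUMO ligase, read 7.18, 7.21 and 8.03 in wild-type input and 7.49, 8.10 and 8.15 in wild-type IP, and 7.42, 7.43 and 7.79 against 6.94, 7.30 and 6.18 in the knockout. The interaction was tested: specific enrichment was 1.18 ± 0.51 (adjusted p = 1.0 in limma, with the replicate block 0.627). Zfp830 read 6.69, 6.5 and 6.06 in wild-type input and 7.36, 7.08 and 6.16 in wild-type IP, and 6.85, 6.64 and 6.39 against 6.42, 5.89 and 5.58 in the knockout. Its specific enrichment was 1.11 ± 0.51 (adjusted p = 1.0, with the block 0.314). Over all tested members 4 had this pattern (2.15%, against 1.66% of all genes), the others being Zfp652 and Zfp790.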

How the results depend on the processing

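The count of called members was 0 in every comparison without a block, except under the settings named here. With the replicate block by preparation it was 13 for wild-type IP minus input, 7 for knockout IP minus input and 9 for wild-type minus knockout IP (6.99%, 3.76% and 4.84%, against 7.02%, 6% and 2.45% of all genes). With the number as the block over all 12 arrays it was 18, 16 and 9 (9.68%, 8.6% and 4.84%, against 11.7%, 11.3% and 2.45%). With the preparation block after quantile normalization it was 6, 0 and 4 (3.21%, 0% and 2.14%, against 3.49%, 0.316% and 1.81%). These fits remove differences between replicate numbers from the residual. Leaving out 1 array gave 0 to 1 called in wild type (Zfp11 without KO IP replicate 1) and 0 in the other comparisons, and dropping the filter gave 1 between the IPs (Zfp941).

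For the inputs and specific enrichment, limma called 0 members under all settings run (at an unadjusted p under 0.05, 0 and 5, and with the replicate block 2 and 17). The knockout median moved from -0.05 to 0.12 without the filter, as low-signal genes entered (all genes 0.12), and to -0.11 to 0.02 when 1 array was left out. Over the arrays left out, the median between the IPs was 0.08 to 0.30, in wild type 0.21 to 0.37, between the inputs -0.02 to 0.07, and as specific enrichment 0.16 to 0.34. Quantile normalization moved the median of all genes from -0.11 to -0.04 in wild type, where the members' median was 0.24. With the stricter filter, 67 members had a wild-type median of 0.32 (all genes -0.21), and without a filter 278 had 0.32 (all genes 0.14). Of the single-gene results recomputed, 511 kept their direction and side of the threshold, 32 passed only under an alternative, and 0 reversed.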
